A study of Mus musculus with 8 samples.

Results

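Integrin subunits are described here across 8 arrays of mouse cerebral cortex RNA: the 10 genes Itga2, Itga3, Itga5, Itga6, Itga7, Itgav, Itgb1, Itgb3, Itgb5 and Itgb8, of 18194 genes named on the array. They were taken as every probe set whose platform annotation named 1 of these genes, which gave 29 probe sets of 45101. The series' title names an astroglial program that is elicited by FGF2, a growth factor that makes astrocytes and neural progenitors divide. RNA of 4 groups was measured on Affymetrix mouse arrays, 2 arrays a group: vehicle alone, FGF2 alone, FGF2 given with U0126, and FGF2 given with SB202190. U0126 blocks MEK and so the activation of ERK, and SB202190 blocks p38 kinases. No group received an inhibitor without FGF2. The sources used here do not give strain, age, doses, times, or whether tissue or cells in culture were treated. For the SB202190 group, the label of replicate 2 names another kind of treatment (acclimatization) than the other 7 labels. Nothing says that the 2 samples of a group came from separate cultures or animals, so p-values speak only of the spread among these samples, and that spread may be technical.

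Integrins are receptors made of an alpha and a beta subunit that cross the plasma membrane and tie the extracellular matrix to the actin cytoskeleton. The beta subunit Itgb1 pairs with many alpha subunits, among them the laminin receptors Itga3, Itga6 and Itga7, the fibronectin receptor Itga5 and the collagen receptor Itga2. Itgav pairs with Itgb1, Itgb3, Itgb5 or Itgb8, binds vitronectin and fibronectin, and with Itgb8 frees latent TGF-beta, a role known from astrocytes and blood vessels of the brain.

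Levels are given as the deposited signal, a linear intensity scaled by the authors to a common mean, and changes as differences of log2(signal + 1.77) after quantile normalization, which understates the change of dim genes. Each gene is shown by its brightest probe set on average and was called at an adjusted p under 0.05 (limma, Benjamini-Hochberg over the 13174 genes tested in each comparison). Of the 10 subunits 9 passed the filter on low values. Itgb3 did not: its probe set 1455257_at gave signals of 16.4 and 16.3 with vehicle, 8.22 and 5.82 with FGF2, 8.19 and 13.8 with U0126 and 14.3 and 14.2 with SB202190. Its other probe set, 1421511_at, lay between 1.41 and 13.9. All of them lay below the filter, so no change is given for this gene. Of the 29 probe sets 20 passed the filter.

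The array medians of the signal lay between 22.3 and 27.8, and arrays correlated within groups at 0.980 to 0.984 and between groups at 0.947 to 0.981. FGF2 replicate 2 had a mean signal of 12902 for the spiked cre control, against 9954 to 10414 on the other 7 arrays. The ratio of 3' to 5' Actb signal was 1.26 and 1.28 on the U0126 arrays and 1.31 to 1.41 on the others. For Gapdh this ratio was 0.745 and 0.758 on the U0126 arrays, within the 0.697 to 0.777 of the others. All 10 astrocyte markers were above the filter and fell with FGF2, their summed signal going from 24657 to 24952 with vehicle down to 13222 to 13347 with FGF2. That sum was 16446 to 16716 with U0126 and 12994 to 13119 with SB202190. Of 11 neuronal markers 5 passed the filter, and Rbfox3, Snap25, Slc17a7, Gad2, Nefl and Dcx did not. Of 14 markers of microglia and macrophages 7 passed it. In such RNA a lower share of cells of a type and less RNA per cell cannot be told apart.

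FGF2 changed 6 of the 9 tested subunits against vehicle, 3 of them higher and 3 lower. Itga3, Itgav and Itgb1 rose, and Itgb5, Itgb8 and Itga7 fell, all by less than a doubling. Over all genes 37.9% were called in this comparison, 18.9% higher and 19% lower, and the subunits' share lay above this background, over only 9 genes and with no test of the list. Their median log2 change was -0.11, beside -0.00 over all genes tested. Quantile normalization and centring each array on its median did not give the same split. With centring, the median of all genes in this comparison was 0.16, and of 5497 called genes 4018 were higher, against 2489 of 4991 as reported here. Under centring 4 subunits were called higher and 2 lower, with Itga5 gained and Itga7 lost. The calls of Itga7 and Itgb1 with FGF2 were also lost at adjusted p under 0.01 and without some single arrays. With the mean of all probe sets the call of Itga3 was lost and Itgb1 turned sign. The subunits' share above the background thus depended on these choices.

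**Figure D1:**
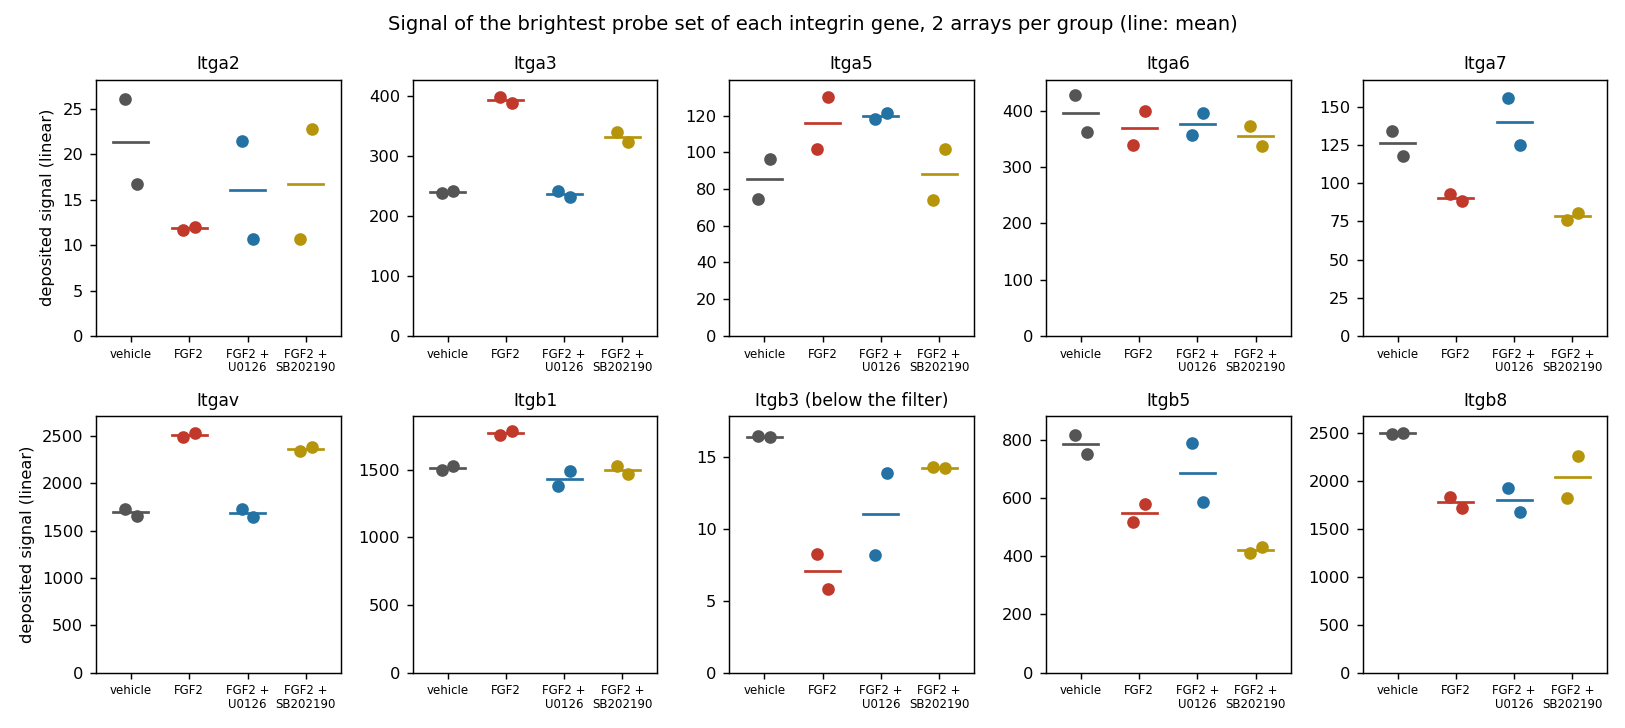
Deposited signal (linear, each axis from 0) of the brightest probe set of each of the 10 subunits on every array: points are arrays, lines the means of 2 arrays, and colours the 4 groups. Itga3 and Itgav stand at 389 to 398 and 2492 to 2532 with FGF2 and at 232 to 241 and 1639 to 1730 with U0126, close to vehicle, while Itgb8 stays at 1677 to 1928 with U0126, below both vehicle arrays.

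Itgav, the alpha subunit of the vitronectin receptors, gave signals of 1731 and 1658 with vehicle, 2492 and 2532 with FGF2, 1730 and 1639 with FGF2 and U0126, and 2338 and 2383 with FGF2 and SB202190. The FGF2 arrays and the SB202190 arrays lay above all vehicle arrays, and the U0126 arrays lay within or just below the vehicle range. The log2 change was 0.49 ± 0.06 (SE) with FGF2 against vehicle (adjusted p = 1.78e-05, limma), a 1.41-fold rise. Adding U0126 lowered it by a log2 change of -0.53 ± 0.06 (adjusted p = 3.02e-05, limma). U0126 arrays differed from vehicle by -0.04, with a 95% interval from -0.16 to 0.09. With SB202190 the change against FGF2 was -0.08 ± 0.06 (adjusted p = 0.553, limma), with an interval from -0.20 to 0.05. Itgav stayed higher than with vehicle there, by 0.42 (adjusted p = 7.6e-05, limma), a call that was lost with the mean of all probe sets (adjusted p = 0.104, limma).

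The other 2 probe sets of Itgav above the filter moved further in the same directions with FGF2 and with U0126. Probe set 1421198_at rose by 0.88 ± 0.10 with FGF2, from 302 and 269.8 to 499 and 560.1, and 1432296_a_at rose by 1.08 ± 0.18, from 80.8 and 62.3 to 137 and 152. Both were lower with U0126, by -0.68 and -0.74. Against vehicle they differed with U0126 by 0.19 and 0.34, neither called. The U0126 arrays of 1421198_at, at 342 and 318, lay above both of its vehicle arrays. Probe set 1432296_a_at stood at 100.1 and 85.1 with SB202190, between the vehicle and FGF2 arrays. That was a change of -0.63 ± 0.18 against FGF2 that was not called (adjusted p = 0.114 over all probe sets, limma). Against vehicle it was 0.46 ± 0.18, not called either (adjusted p = 0.0861 over all probe sets, limma). Of the 5 probe sets 2, 1432678_at and 1432679_at, lay below the filter. When all 5 were averaged into 1 value the change with U0126 kept its size at -0.55 but was no longer called (adjusted p = 0.112, limma).

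Itga3, an alpha subunit of laminin receptors, followed the same course. Its signals were 238 and 242 with vehicle, 398 and 389 with FGF2, 241 and 232 with U0126, and 339 and 322 with SB202190. The SB202190 arrays lay between the FGF2 arrays and the vehicle arrays, overlapping neither. FGF2 raised Itga3 by 0.72 ± 0.09 on the log2 scale (adjusted p = 3.48e-05, limma), a 1.64-fold rise and the largest among the called subunits. U0126 lowered it against FGF2 by -0.73 ± 0.09 (adjusted p = 8.49e-05, limma), to a level -0.02 from vehicle (95% interval -0.21 to 0.18). The change with SB202190 was -0.24 ± 0.09 (adjusted p = 0.191, limma). In a direct test Itga3 was lower with U0126 than with SB202190, by -0.50 ± 0.09 (adjusted p = 0.00147, limma), and Itgav by -0.46 ± 0.06 (adjusted p = 9.48e-05, limma). With the mean of all probe sets neither was called, Itga3 at -0.43 and Itgav at -0.28 (adjusted p = 0.113 and 0.424, limma), and the Itgav probe set 1432296_a_at gave -0.11 ± 0.18 (adjusted p = 0.750 over all probe sets, limma). The comparisons of FGF2 with vehicle and of an inhibitor with FGF2 share the FGF2 arrays with opposite sign, so that an error of those arrays moves both in opposite directions.

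The 3 probe sets of Itga3 were not of equal weight. Probe set 1460305_at gave 98.4 and 73.7 with vehicle and 109 and 117 with FGF2, a change of 0.46 ± 0.17 that was not called (adjusted p = 0.0559 over all probe sets, limma), and was called lower with U0126 by -0.64 ± 0.17. Probe set 1421997_s_at, whose suffix marks probes shared between transcripts, spread from 102 to 188 with vehicle and from 111 to 218 with FGF2 and showed no change beyond that spread (0.21 ± 0.31). With the mean of the 3 probe sets, Itga3 changed by 0.46 with FGF2 (adjusted p = 0.0571, limma) and by -0.50 with U0126 (adjusted p = 0.0693, limma), and neither was called.

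Itgb5, which pairs with Itgav in a vitronectin receptor, went the opposite way. Its signals were 819 and 754 with vehicle, 520 and 579 with FGF2, 790 and 586 with U0126, and 412 and 431 with SB202190. Vehicle and FGF2 arrays did not overlap, the SB202190 arrays were the lowest of all, and the U0126 arrays were far apart, 1 within the vehicle range and 1 just above the FGF2 arrays. Itgb5 fell with FGF2 by 0.55 ± 0.12 on the log2 scale (adjusted p = 0.00244, limma). The change with U0126 against FGF2 was 0.31 ± 0.12 (adjusted p = 0.0873, limma). Without replicate 2 of the U0126 group it was 0.53 (adjusted p = 0.00453, limma), and without replicate 1 of that group 0.08 (adjusted p = 0.655, limma). SB202190 gave -0.38 ± 0.12 against FGF2 (adjusted p = 0.112, limma), and this group was lower than vehicle by -0.93 ± 0.12 (adjusted p = 4.11e-05, limma). The inhibitors differed from each other: Itgb5 was higher with U0126 than with SB202190 by 0.68 ± 0.12 (adjusted p = 0.00117, limma), in 2 of 2 U0126 arrays.

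Of the 4 probe sets of Itgb5 all gave a negative change with FGF2, from -0.28 to -0.62, and 3 were called. The exception was 1417534_at (449 and 427 with vehicle, 319 and 409 with FGF2, adjusted p = 0.0792, limma). That probe set was the only 1 of the 20 called with SB202190 against FGF2, at 264 and 244 (-0.51 ± 0.11, adjusted p = 0.0429 over all probe sets, limma). With U0126 against FGF2 the 4 changes lay between 0.06 and 0.31, none called. Against vehicle, U0126 gave -0.25 for 1417533_a_at and -0.22 for 1417534_at, neither called. Probe sets 1456133_x_at and 1456195_x_at were called lower there, by -0.51 and -0.26 (adjusted p = 0.00645 and 0.0474 over all probe sets, limma). The suffix _x_at marks probes that can bind several transcripts.

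Itgb8, the partner of Itgav in the receptor that frees latent TGF-beta, was measured by 1 probe set. It gave 2488 and 2506 with vehicle, 1837 and 1718 with FGF2, 1928 and 1677 with U0126, and 1825 and 2262 with SB202190. All 6 arrays with FGF2 lay below both vehicle arrays. Itgb8 fell with FGF2 by 0.55 ± 0.09 (adjusted p = 4.12e-04, limma). Its change with U0126 against FGF2 was 0.04 ± 0.09 (adjusted p = 0.797, limma; 95% interval -0.16 to 0.24), and it stayed lower than vehicle by -0.51 ± 0.09 (adjusted p = 9.87e-04, limma). With SB202190 the change against FGF2 was 0.18 ± 0.09 (adjusted p = 0.353, limma), and the group was lower than vehicle by -0.37 ± 0.09 (adjusted p = 0.00721, limma). Without replicate 1 of the SB202190 group that last value was -0.21 and not called (adjusted p = 0.102, limma), and with median centring it was -0.09 (adjusted p = 0.480, limma).

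**Figure D2:**
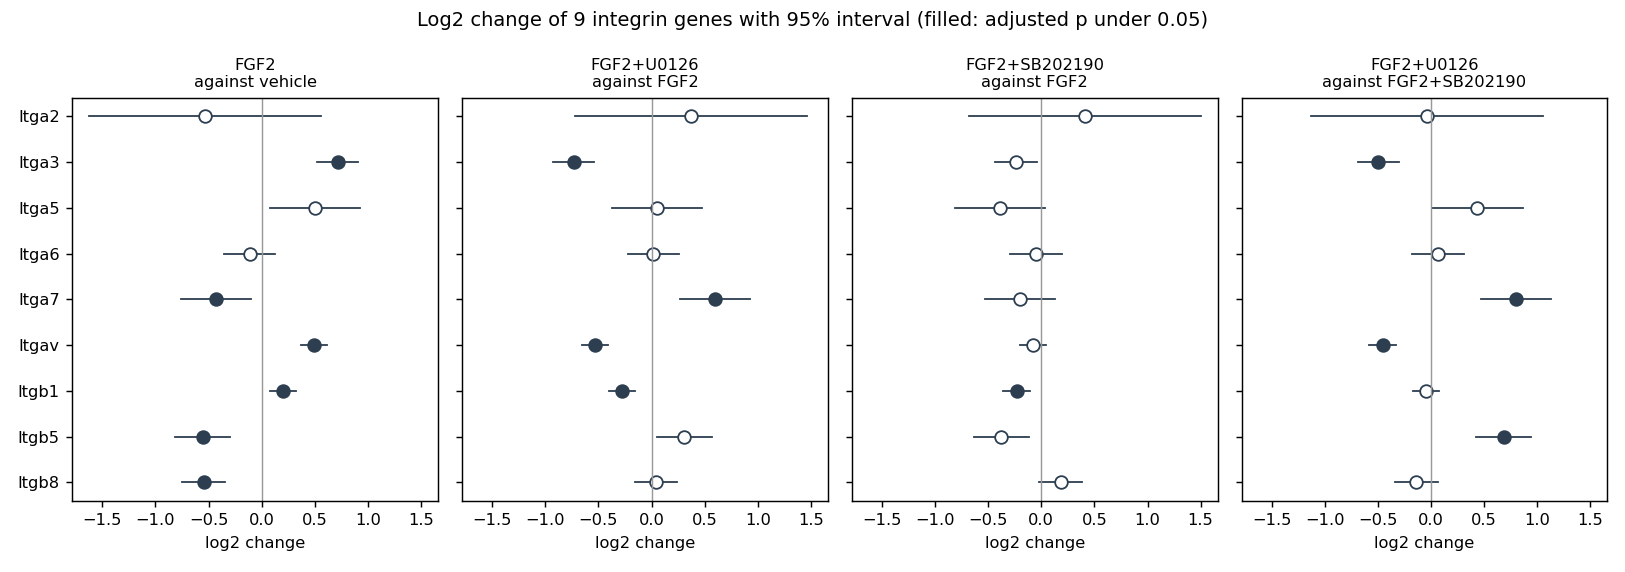
Log2 change (x axis) of the 9 tested subunits (rows) in 4 comparisons; points are limma estimates, bars their 95% intervals, and filled points have an adjusted p under 0.05. Itga3 at 0.72 and Itgav at 0.49 with FGF2 have -0.73 and -0.53 with U0126 against FGF2, 2 comparisons that share the FGF2 arrays, and Itgb8 at -0.55 with FGF2 has 0.04 with U0126.

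The RefSeq promoter table (GRCm38.p6) held 7 of the 10 subunits, and Itga6, Itga7 and Itgb3 had no entry. The windows of the 4 subunits with the smallest adjusted p with FGF2 are printed, 250 bases before the annotated start and read 5′ to 3′ on the gene's strand. They set a pair that rose with FGF2 and was lower with U0126 (Itga3, Itgav) beside a pair that fell with FGF2 (Itgb5, Itgb8). Capitals mark matches, on either strand, to a 6-base form of the ETS motif (CGGAAG) and to the GC box bound by Sp factors (GGGCGG). Some ETS factors are phosphorylated by ERK. Shorter forms of the ETS motif were not searched, so a window without CGGAAG can still hold one. The AP-1 motif (TGANTCA) was searched in the same way. No match of 1 motif overlapped a match of another, and the motifs were chosen after the sequences and changes had been seen.
Itga3, chr11:95076715-95076964, minus strand: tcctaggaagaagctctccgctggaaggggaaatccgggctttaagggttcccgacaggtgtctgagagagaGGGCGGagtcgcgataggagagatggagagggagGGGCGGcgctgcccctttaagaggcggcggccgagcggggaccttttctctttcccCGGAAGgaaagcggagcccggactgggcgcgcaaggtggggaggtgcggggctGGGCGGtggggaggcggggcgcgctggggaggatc
Itgav, chr2:83724147-83724396, plus strand: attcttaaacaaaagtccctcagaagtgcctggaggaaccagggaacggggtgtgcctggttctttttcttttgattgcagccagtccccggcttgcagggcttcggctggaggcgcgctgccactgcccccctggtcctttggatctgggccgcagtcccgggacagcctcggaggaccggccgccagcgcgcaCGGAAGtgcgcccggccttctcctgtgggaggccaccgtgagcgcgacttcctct
Itgb5, chr16:33829415-33829664, plus strand: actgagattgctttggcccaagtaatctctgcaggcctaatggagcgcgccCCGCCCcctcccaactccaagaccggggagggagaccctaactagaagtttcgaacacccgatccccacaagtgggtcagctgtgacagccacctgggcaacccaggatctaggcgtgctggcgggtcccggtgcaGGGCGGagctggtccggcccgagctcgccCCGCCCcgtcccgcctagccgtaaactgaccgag
Itgb8, chr12:119238277-119238526, minus strand: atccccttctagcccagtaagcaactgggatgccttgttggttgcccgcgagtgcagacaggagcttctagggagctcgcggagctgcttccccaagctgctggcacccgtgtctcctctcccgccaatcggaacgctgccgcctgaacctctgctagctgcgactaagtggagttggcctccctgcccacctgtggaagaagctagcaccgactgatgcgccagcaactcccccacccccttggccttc
CGGAAG was present once in the window of Itga3, 88 bases before the start, and once in that of Itgav, 55 bases before it. It was in none of the windows of Itga2, Itga5, Itgb1, Itgb5 and Itgb8. Of these, Itgb1 was also called higher with FGF2 and lower with U0126 against FGF2. The letters CGGAAG are in 13.6% of all 32851 promoter windows of this length. The GC box was present 3 times in Itga3, 3 times in Itgb5 and in neither Itgav nor Itgb8, and is in 32.7% of all windows. The AP-1 letters, in 6.75% of all windows, were in none of the windows of the 7 subunits. Itga3 had another annotated start, whose window held no CGGAAG. These are matches of letters, and binding was not measured.

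Itgb1, the common beta subunit, gave 1499 and 1528 with vehicle, 1761 and 1785 with FGF2, 1380 and 1493 with U0126, and 1528 and 1467 with SB202190. The FGF2 arrays were the highest, and the arrays with either inhibitor lay near or below those with vehicle. Itgb1 rose with FGF2 by 0.20 ± 0.06 (adjusted p = 0.0128, limma), a 1.15-fold rise. It was lower with U0126 than with FGF2 by -0.28 ± 0.06 (adjusted p = 0.00362, limma) and lower with SB202190 by -0.23 ± 0.06 (adjusted p = 0.0472, limma). The difference between the inhibitors was -0.05 ± 0.06 (95% interval -0.17 to 0.08). Itgb1 was the only subunit called with SB202190 against FGF2, where 3.02% of all genes were called, 1.32% higher and 1.7% lower.

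These calls of Itgb1 rested on 1 probe set. Probe set 1426918_at, with nearly the same signal (1355 and 1340 with vehicle, 1409.6 and 1562 with FGF2), gave 0.13 ± 0.08 with FGF2, -0.16 ± 0.08 with U0126 and 0.04 ± 0.08 with SB202190, none called. The dimmer 1427771_x_at gave -0.13 ± 0.19 with FGF2, and the other 3 probe sets, 1426919_at, 1438119_at and 1426920_x_at, lay below the filter. Averaging all 6 turned the sign of the 3 changes, to -0.25, 0.05 and 0.17. The call with SB202190 was lost in 13 of 21 alternatives, among them the removal of any vehicle, FGF2 or SB202190 array, where the change lay between -0.25 and -0.21. The call with FGF2 was lost without vehicle replicate 1 and without either FGF2 array, with the change at 0.20 each time (adjusted p = 0.0598, 0.0681 and 0.0644, limma).

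Itga7, a laminin receptor subunit best known from muscle, was measured by 1 probe set. It gave 134 and 118 with vehicle, 92.6 and 88.5 with FGF2, 156 and 125 with U0126, and 76.2 and 80.5 with SB202190. Vehicle and U0126 arrays lay above all arrays with FGF2 alone or with SB202190. Itga7 fell with FGF2 by 0.43 ± 0.15 (adjusted p = 0.0402, limma) and was higher with U0126 than with FGF2 by 0.60 ± 0.15 (adjusted p = 0.0128, limma) and than with SB202190 by 0.80 ± 0.15 (adjusted p = 0.00207, limma). Against vehicle it was lower with SB202190 by -0.63 ± 0.15 (adjusted p = 0.00527, limma). Its fall with FGF2 was near the threshold: without either vehicle array or either FGF2 array it lay between -0.51 and -0.35 and was not called, and with median centring it was -0.27 (adjusted p = 0.186, limma). The change with U0126 was 0.62, 0.57 and 0.45 without FGF2 replicate 1, FGF2 replicate 2 and U0126 replicate 1, and was not called in any of them (adjusted p = 0.0525, 0.0713 and 0.121, limma).

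Itga5, the alpha subunit of the main fibronectin receptor, gave 74.7 and 96.3 with vehicle, 102 and 130.1 with FGF2, 118 and 121 with U0126, and 74.2 and 102 with SB202190. FGF2 arrays lay above vehicle arrays, and the SB202190 arrays spanned both. The change with FGF2 was 0.50 ± 0.20 (adjusted p = 0.0598, limma), so it was not called, though it was in 6 alternatives, at 0.71 without vehicle replicate 2 and 0.68 without FGF2 replicate 1. Without vehicle replicate 1 and without FGF2 replicate 2 it was 0.30 and 0.32 and not called (adjusted p = 0.353 and 0.361, limma). Against vehicle, Itga5 was higher with U0126 by 0.55 ± 0.20 (adjusted p = 0.0469, limma), a call that was lost without vehicle replicate 1 or either U0126 array, at 0.35, 0.59 and 0.52. U0126 and FGF2 alone differed by 0.05 (95% interval -0.37 to 0.47). Probe set 1423268_at gave 19.4 and 35.6 with vehicle and 37.5 and 48.7 with FGF2 (0.86 ± 0.32, adjusted p = 0.0585 over all probe sets, limma), and 1458996_at and 1457561_at lay below the filter. The brightest probe set of Itga5, 1423267_s_at, has a suffix that marks probes shared between transcripts. In the alternative without such probe sets Itga5 was called higher with FGF2.

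No comparison called Itga6 or Itga2. Itga6, another laminin receptor subunit, gave 429 and 362 with vehicle, 338 and 400.1 with FGF2, 357 and 396 with U0126, and 373 and 337 with SB202190, and the groups overlapped. Its changes lay between -0.16 and 0.07 in the 6 comparisons, and that with FGF2 was -0.11 with a 95% interval from -0.36 to 0.13. Its second probe set, 1422444_at, gave 0.13 ± 0.16. Itga2, a collagen receptor subunit, was dim, with 26.1 and 16.7 with vehicle, 11.67 and 12.04 with FGF2, 21.5 and 10.7 with U0126, and 10.7 and 22.8 with SB202190. The interval of its change with FGF2, from -1.63 to 0.56, leaves a large change in either direction within the error.

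**Figure D3:**
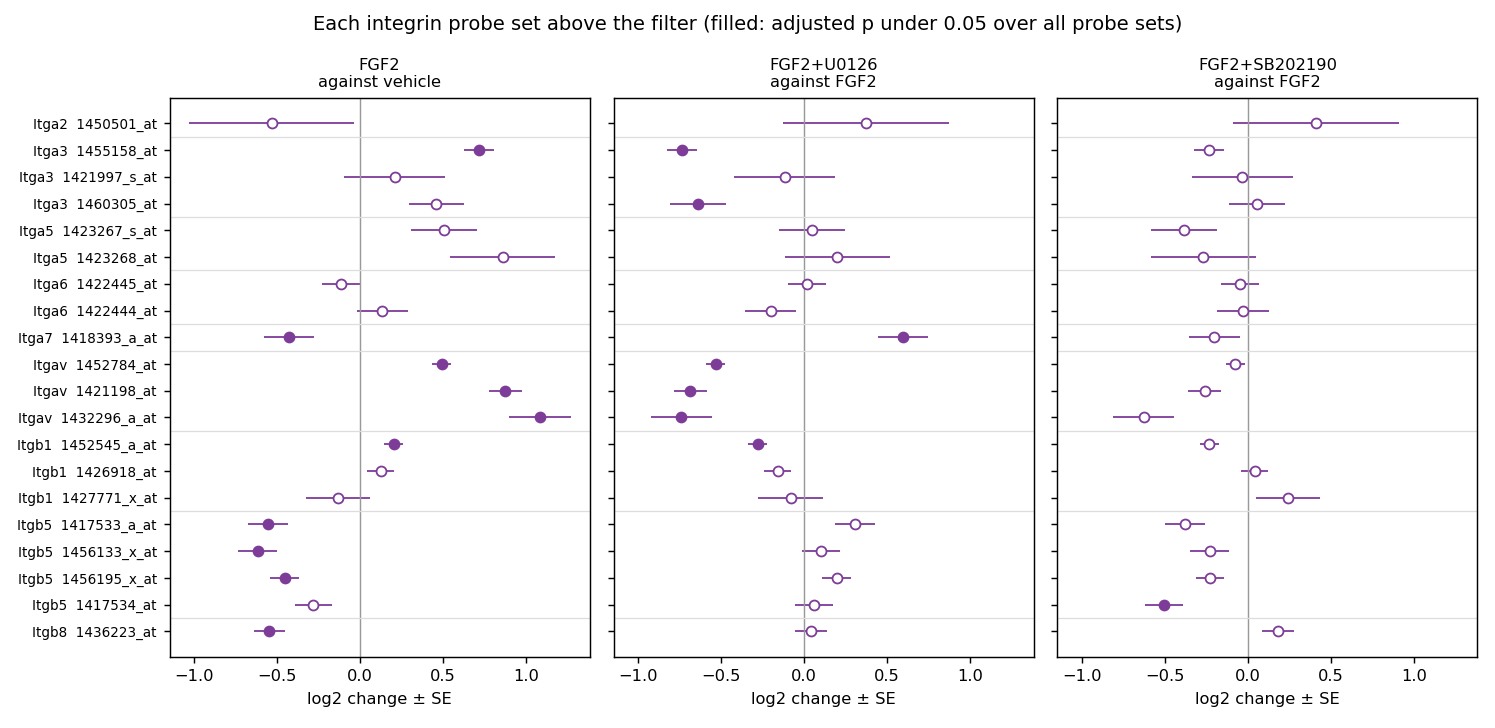
Log2 change ± SE (x axis) of the 20 integrin probe sets above the filter (rows, grouped by gene) in 3 comparisons; filled points have an adjusted p under 0.05 over all 27061 probe sets. The 3 Itgav probe sets lie at 0.49 to 1.08 with FGF2, the 4 of Itgb5 at -0.62 to -0.28, and the 3 of Itgb1 on both sides of 0.

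Over probe sets, 10 of 20 were called with FGF2 against vehicle (5 higher, 5 lower) where 30.5% of all probe sets were called. Between U0126 with FGF2 and FGF2 alone it was 7 of 20 (1 higher, 6 lower) where 16.3% were called, with SB202190 against FGF2 1 of 20 where 1.91% were called, and between the inhibitors 8 of 20 (4 on each side) where 16.7% were called. Probe sets of 1 gene share their transcripts and are not independent.

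Counted by genes, U0126 changed 4 of 9 subunits against FGF2, Itga3, Itgav and Itgb1 lower and Itga7 higher. Over all genes 22.1% were called, 11.6% higher and 10.5% lower. The median change of the subunits was 0.04, beside 0.03 over all genes. SB202190 changed 1 of 9, with a median of -0.20 beside -0.00. Between U0126 and SB202190 there were 4 of 9, with Itga7 and Itgb5 higher and Itga3 and Itgav lower with U0126. In that comparison 22.7% of all genes were called, 12.4% higher and 10.3% lower.

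Against vehicle, FGF2 with U0126 left 2 of 9 subunits called, Itga5 higher and Itgb8 lower, where 31.7% of all genes were called, 16.7% higher and 15% lower. FGF2 with SB202190 left 5 of 9 called, Itga3 and Itgav higher and Itga7, Itgb5 and Itgb8 lower, where 35.8% were called, 18% higher and 17.8% lower. These comparisons share the vehicle arrays with FGF2 against vehicle. Centring moved the split of all genes here too, to 4030 higher of 5044 called with U0126 and 4059 of 5496 with SB202190, against 2196 of 4177 and 2377 of 4722, and with it Itgb8 was no longer called with SB202190. With the mean of all probe sets Itga3 and Itgav were no longer called there (adjusted p = 0.104 for each, limma).

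The astrocyte markers moved beside these subunits. All 10 of them were called lower with FGF2, and 7 were called higher with U0126 against FGF2, 6 with median centring. Gfap, the filament protein of astrocytes, went from 3209.7 ± 38.8 with vehicle (SD, n = 2) to 2199.6 ± 79.2 with FGF2 and 2532 ± 66.9 with U0126. The water channel Aqp4 went from 5340.4 ± 228 to 1557 ± 48.6 and 2370.0 ± 26.7. Markers of pericytes and meningeal fibroblasts were called lower with FGF2 in 7 of 10 cases, their summed signal going from 13954 to 14395 with vehicle to 7571 to 7975 with FGF2. Those of ependymal cells were called lower in 6 of 8, with sums of 3940 to 4052 and 1535 to 1571. With U0126 against FGF2 5 ependymal markers were called higher, with a sum of 2397 to 2510, and of the pericyte and fibroblast markers 1 was higher and 2 lower. Of 5 oligodendrocyte markers tested 2 were called lower with FGF2, and 2 lower with U0126 against FGF2. Over all genes 18.9% were called higher and 19% lower with FGF2, and 11.6% and 10.5% with U0126 against FGF2. For microglia and macrophages the sums were 507 to 660.0 with vehicle and 485 to 489 with FGF2, and Aif1, Cx3cr1, C1qa, C1qc, Trem2, P2ry12 and Ptprc lay below the filter. Endothelial sums were 1739 to 1873 with vehicle, 644 to 720 with FGF2, 969 to 1066 with U0126 and 496 to 508 with SB202190, and the transporter Slco1a4 gave the largest part. Of the 5 endothelial markers tested 1 was called higher and 2 lower with FGF2, and the adhesion protein Esam was the higher one, at 30.1 ± 2.97 and 100.02 ± 11.2 (1.84 ± 0.22, adjusted p = 2.05e-05, limma) and at 49.0 ± 2.40 with U0126 (-0.98 ± 0.22, adjusted p = 0.00572, limma). The lower ones were Slco1a4 (-1.92 ± 0.09, adjusted p = 6.33e-09, limma) and Kdr (-1.72 ± 0.34, adjusted p = 0.00133, limma). Kdr went from 91.9 ± 7.37 to 25.0 ± 7.15, and Slco1a4 was higher with U0126 than with FGF2 by 0.98 ± 0.09. The defining marker Cdh5 gave 45.6 ± 0.524 with vehicle, 58.6 ± 22.0 with FGF2 and 28.0 ± 3.59 with U0126, and Flt1 10.7 ± 5.94, 21.5 ± 17.6 and 12.7 ± 1.60. Neither Cdh5 nor Flt1 was called with FGF2, and Cldn5, Pecam1, Tek, Tie1 and Emcn lay below the filter. Neuronal sums were 2280 to 2312 with vehicle, 2389 to 2493 with FGF2, 1902 to 1912 with U0126 and 2615 to 2644 with SB202190. Of the 5 neuronal markers tested 2 were called higher and 1 lower with FGF2, and 0 higher and 2 lower with U0126 against FGF2 (limma; 0 and 3 at an unadjusted p under 0.05). The 2 called higher with FGF2 were also the 2 called lower with U0126. The neuronal tubulin Tubb3 changed by 1.28 ± 0.17 with FGF2 and by -0.65 ± 0.17 with U0126 (adjusted p = 6.69e-05 and 0.0170, limma). Stmn2 changed by 0.15 ± 0.05 and -0.36 ± 0.05 (adjusted p = 0.0430 and 3.87e-04, limma). The median over the 5 neuronal markers was -0.30 with FGF2 and -0.36 with U0126 against FGF2, beside -0.00 and 0.03 over all genes. No marker was listed at 0. The part of these cells in the changes of the integrin subunits was not tested.

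Across the 8 arrays some pairs of subunits had courses that were alike or opposed, and others were near 0, such as Itga5 with Itgav at 0.03 and Itga6 with Itgb1 at 0.03. These correlations describe 4 groups of 2 arrays and so mostly restate the differences between groups, and all genes on an array share its RNA. Itga3 and Itgav had a Pearson r of 0.97 over the log2 values, and Itga7 and Itgb5 of 0.88, while Itgav had -0.86 with Itga7 and -0.73 with Itgb5. Among all other tested genes, the course of Itga3 was most like those of the morphogen Shh (r = 0.996), the transporter Abcg2 (0.995) and the membrane protein Tm4sf1 (0.994). That of Itgav was most like those of Zmiz1 (0.994), the immunophilin Fkbp5 (0.993) and the adaptor Sh3kbp1 (0.992). For Itgb8 the nearest were Sash1 (0.975), Gm32031 (0.973) and the growth factor Ptn (0.972), and for Itgb5 Syne4 (0.978), the creatine kinase Ckb (0.978) and Pipox (0.974). Itgb1 came closest to Stk17b (0.974), Manf (0.968) and Cckbr (0.962), and Itga7 to the glypican Gpc1 (0.985), the demethylase Kdm6b (0.979) and Acsf3 (0.977).

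Of the other integrin subunits 16 were on the array and 9 passed the filter. With FGF2 2 were called higher, Itgb2 and Itga4, and 2 lower, Itga8 and Itga1, which is 22.2% each way beside 18.9% and 19% over all genes. Itgb2, the beta subunit of leukocyte integrins, went from 20.3 ± 3.54 (SD, n = 2) to 67.1 ± 4.93, a log2 change of 1.84 ± 0.25 (adjusted p = 7.18e-05, limma), and stood at 61.6 ± 4.72 with U0126 and 46.9 ± 9.61 with SB202190. Its usual alpha partners Itgal, Itgam and Itgax lay below the filter. Itga8 fell from 130 ± 3.90 to 50.2 ± 0.441 (-1.29 ± 0.19, adjusted p = 1.28e-04, limma) and was higher with U0126, at 92.3 ± 14.8 (0.82 ± 0.19, adjusted p = 0.00735, limma). That second call was lost without U0126 replicate 1 (0.67, adjusted p = 0.0758, limma).

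Itga1, a collagen receptor subunit, was lower with FGF2 than with vehicle and lower still with either inhibitor, going from 235 ± 11.3 with vehicle to 169 ± 7.88 with FGF2, 124 ± 10.4 with U0126 and 113 ± 6.85 with SB202190. The changes were -0.45 ± 0.12 with FGF2 and, against FGF2, -0.45 ± 0.12 with U0126 and -0.57 ± 0.12 with SB202190. The first was lost without vehicle replicate 1 and without FGF2 replicate 1 (-0.42 and -0.40) and with centring (-0.28), and the others without either FGF2 array (-0.62 to -0.40 over both). Without U0126 replicate 2 the change with U0126 was -0.38, and without either SB202190 array that with SB202190 was -0.64 and -0.50, none called. With the mean of all probe sets the 3 changes were -0.53, -0.39 and -0.22, none called. Itga4 was dim, with 21.9 ± 7.11 and 38.5 ± 4.80 (1.00 ± 0.35, adjusted p = 0.0402, limma). This call was lost without vehicle replicate 2 (0.70), either FGF2 array (0.89 and 1.10) or either SB202190 array (0.99 each). Itga2b, Itga10, Itgae, Itgb2l and Itgbl1 were not called with FGF2 or with either inhibitor against it.

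Genes of the matrix, the focal adhesion and the membrane around integrins were read from lists written with earlier results of these data known. The 29 tested ligands were mostly of the matrix, but the list also held the membrane proteins Vcam1, L1cam and Adam15. With FGF2 6 ligands were called higher, Vcam1 and Adam15 among them, and 12 lower, with a median of -0.27 beside -0.00 over all genes. These are 20.7% and 41.4%, beside 18.9% and 19% over all genes. Centring gave 9 and 9. The glycoprotein Tnc went from 546 ± 17.5 to 1870.5 ± 73.9 (1.73 ± 0.10) and was at 866 ± 149 with U0126 (-1.10 ± 0.10 against FGF2, -0.62 with the mean of all probe sets). Fibronectin (Fn1), a ligand of Itga5 and Itgav, went from 2092 ± 140 to 3659 ± 46.4 (0.71 ± 0.08) and to 2478 ± 350 with U0126 (-0.50 ± 0.08), the last call lost without an intensity trend in the variance. Vcam1, a ligand of Itga4, rose by 0.46 ± 0.06 with FGF2 and was lower with U0126 by -0.42 ± 0.06 and with SB202190 by -0.50 ± 0.06. Col1a2, Postn and the basement membrane protein Nid2 fell with FGF2 by 1.15, 0.91 and 1.41, and Col1a2 by 0.55 when its probe sets were averaged. U0126 gave 3 ligands higher and 8 lower than FGF2 alone, and with SB202190 0 higher and 2 lower (limma; 1 and 5 at an unadjusted p under 0.05). Over all genes 11.6% were higher and 10.5% lower with U0126, and 1.32% and 1.7% with SB202190.

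**Figure D4:**
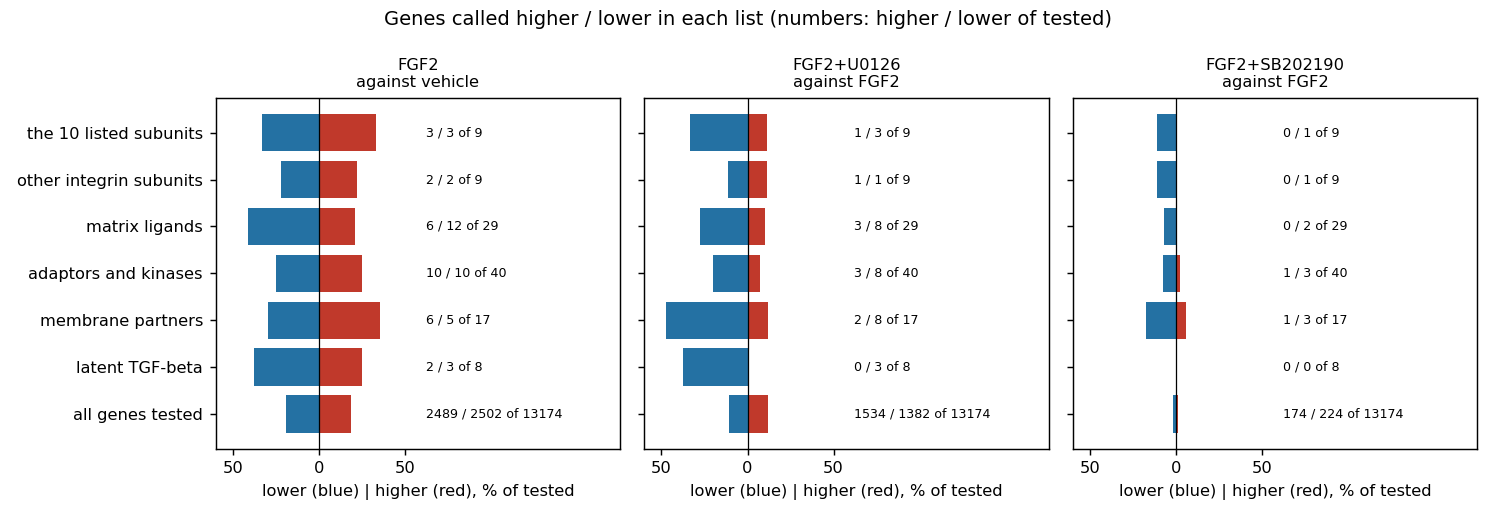
Percent of tested genes called higher (right, red) and lower (left, blue) in each list and over all 13174 genes, in 3 comparisons, with the counts printed beside the bars. With U0126 against FGF2 the subunits had 1 higher and 3 lower of 9 and the membrane partners 2 and 8 of 17, beside 1534 and 1382 over all genes.

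Of 40 adaptors and kinases of focal adhesions 10 were called higher and 10 lower with FGF2, and 17 and 4 with centring, so the split depends on the scaling. The share was 25% each way, beside 18.9% and 19% over all genes. Zyxin (Zyx) went from 299 ± 10.5 to 595 ± 77.2 (0.98 ± 0.09), but with the mean of all its probe sets the change was 0.10 and not called (adjusted p = 0.899, limma). The caveola protein Cav1 rose by 0.47 ± 0.07. Paxillin (Pxn), which binds kinases at the adhesion, fell by 0.58 ± 0.07. Of these 40 genes U0126 gave 3 higher and 8 lower than FGF2 alone, 7.5% and 20% beside 11.6% and 10.5% over all genes. Among them Itgb1bp1, which binds the tail of Itgb1 and limits its activation, was higher by 0.52 ± 0.08 (471 ± 5.79 with FGF2, 683 ± 3.55 with U0126), and the actin cross-linker Actn1 lower by -0.37 ± 0.06. With SB202190 there were 1 and 3, or 2.5% and 7.5%, beside 1.32% and 1.7% over all genes.

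Of 17 membrane partners 6 were called higher and 5 lower with FGF2, 6 and 2 without normalization and 7 and 1 with centring. These 6 and 5 are 35.3% and 29.4%, beside 18.9% and 19% over all genes. The urokinase receptor Plaur went from 29.2 ± 4.91 to 140.1 ± 7.00 (2.37 ± 0.18). The hyaluronan receptor Cd44 stood at 1519.7 ± 8.37 with vehicle, 3123 ± 106 with FGF2 and 2283 ± 122 with U0126. Tspan4, a tetraspanin, rose by 0.53 ± 0.06 and was lower with both inhibitors, by -0.51 ± 0.06 and -0.44 ± 0.06. With U0126 against FGF2 the list had 2 higher and 8 lower, or 11.8% and 47.1%, beside 11.6% and 10.5% over all genes. The syndecans Sdc1 and Sdc4, co-receptors of integrins, were lower with U0126 by -0.80 ± 0.11 and -0.92 ± 0.08 (-0.58 for Sdc4 when its probe sets were averaged), and Nrp1 by -0.64 ± 0.07, while Slc3a2, which binds beta subunits, was higher by 0.42 ± 0.07. With SB202190 the list had 1 higher and 3 lower, or 5.88% and 17.6%, beside 1.32% and 1.7%. Without an intensity trend in the variance the calls of Tspan4 and Vcam1 with SB202190 were lost (adjusted p = 0.131 and 0.141, limma).

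Genes of the TGF-beta ligands and of proteins that bind their latent form were read as a list, with 8 tested. With FGF2 2 of these were called higher and 3 lower, 25% and 37.5% beside 18.9% and 19% over all genes. Tgfb1 went from 40.7 ± 14.4 to 128 ± 11.0 (1.78 ± 0.26) and was at 52.0 ± 17.7 with U0126 (-1.29 ± 0.26). Averaged over its probe sets these changes were 0.93 and -0.80, and without an intensity trend the second was not called (adjusted p = 0.0501, limma). Ltbp1, which anchors the latent complex in the matrix, went from 111 ± 18.2 to 305 ± 62.1 (1.48 ± 0.15) and to 104 ± 8.56 with U0126 (-1.52 ± 0.15, and -1.14 averaged over its probe sets, which was not called, adjusted p = 0.0684, limma). Tgfb2 and Tgfb3 fell with FGF2 by 1.20 ± 0.12 and 0.90 ± 0.11. With U0126 against FGF2 the list had 0 higher and 3 lower (limma; 1 higher and 3 lower at an unadjusted p under 0.05), 0% and 37.5% beside 11.6% and 10.5% over all genes, and Ltbp3 was the other of them, at -0.64 ± 0.07. With SB202190 0 of the 8 were called by limma, and 2 were lower at an unadjusted p under 0.05.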

How the data were processed

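Total RNA of 8 samples was measured on 1 Affymetrix mouse array each. The deposited table held an intensity per probe set on a linear scale, which the authors had scaled to a mean of 150.001 on every array after trimming 2% of the values at each end, as the values themselves show. The software and its settings are not given in the sources used here, and no detection calls were used. From the deposited values a log2 scale was computed here as log2(intensity + 1.77), 1.77 being the 10th percentile of all intensities, and quantile normalized.

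Of 45101 probe sets 34958 had 1 gene symbol, 932 several and 9211 none, and genes were named from those with 1, of which 34754 were matched by gene number. Genes below the 40th percentile of the mean (log2 3.83) were left out, leaving 13174 of 18194. limma 3.58.1 in R 4.3.3 fitted all 8 arrays at once, with a variance prior that followed intensity (residual degrees of freedom 4, prior 8.99), for 6 comparisons, two-sided. The same fit was run on 27061 probe sets. The procedure was tested on simulated data. The number of arrays, 2 a group, limits the precision.

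The subunits, gene lists and alternatives were chosen with earlier results of these data known. Named are all subunits, the other tested integrin subunits, from each list examples among the up to 4 genes with the smallest p in FGF2 against vehicle and in each inhibitor against FGF2, and for each subunit called with FGF2 the 3 genes with the highest r. Gfap, Aqp4, Slco1a4, Kdr, Esam, Cdh5, Flt1, Tubb3 and Stmn2 are named as cell type markers, chosen after their values were seen, and marker lists were read as counts and summed signals. Tried as alternatives were median centring or no normalization, pseudocounts of 1 and 16, a filter at the 60th percentile or none, other variance priors, the mean of all probe sets, no probe sets that can bind several transcripts, only the arrays compared, the replicate number as a block, adjusted p under 0.01, and each array left out. Figures were drawn with matplotlib 3.10.9.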

Additional observations from a re-analysis of the deposited data

How the results depend on the processing

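Over the 21 alternatives, the calls of Itgav, Itgb5 and Itgb8 with FGF2 against vehicle held in all. Of the changes of named genes under an alternative, 3426 kept direction and side of the threshold, 76 turned sign with no call in either setting, 190 were no longer called, 37 became called and 8 turned sign with a call in 1 of the settings. These 8 were Itgb1 with the mean of all probe sets (-0.25, 0.054 and 0.17 for FGF2, U0126 and SB202190), Tns3 with FGF2 under median centring (0.043), and Cd151 with FGF2 under median centring, the mean of probe sets and without probe sets that can bind several transcripts (0.083, 0.16 and 0.020) and with SB202190 under the mean (-0.0083). The mean takes in probe sets below the filter, and the cause of the other changes was not tested. Counts of called genes moved over 1.5-fold as follows. With U0126 against FGF2, 2916 became 1619 without a trend in the variance prior, 1782 with the mean and 1620.0 at adjusted p under 0.01. With SB202190 against FGF2, 398 became 235 with centring, 170.0 with the mean, 115 at 0.01 and 0 without the trend (limma, 1819 genes at an unadjusted p under 0.05). Between the inhibitors, 2986 became 1735, 1783 and 1689 without the trend, with the mean and at 0.01. U0126 against vehicle went from 4177 to 2713 at 0.01. Leaving out 1 array gave 1782 to 2933 for U0126 against FGF2 (lowest without an FGF2 array), 82 to 396 for SB202190 against FGF2 (82 and 83 without an FGF2 array, 97 without SB202190 replicate 2) and 1805 to 3012 between the inhibitors (lowest without SB202190 replicate 2). A group left with 1 array was taken to vary like the others. Among subunits, U0126 against FGF2 had 1 call in place of 4 with the mean, and between the inhibitors 2 in place of 4. SB202190 against FGF2 had 0 in place of 1 without normalization, with centring, without the filter, without the trend, with the mean and at 0.01 (limma, 1 to 4 at an unadjusted p under 0.05), 2 with only the arrays compared, and 0 to 2 without 1 array. U0126 against vehicle had 1 in place of 2 without normalization, without the filter, without the trend, at 0.01 and, at the lowest, without 1 array (1 to 2). SB202190 against vehicle had 3 in place of 5 with the mean. Of the subunits' probe sets, with U0126 against FGF2 7 became 3 without the trend and 4 at 0.01, and 4 to 7 without 1 array. With SB202190 against FGF2 1 became 2 with the filter at the 60th percentile and 0 with centring, no filter, no trend, only the arrays compared, at 0.01, and 0 to 1 without 1 array (3 to 9 at an unadjusted p under 0.05). Between the inhibitors 8 became 4 without the trend. Samples with the same replicate number did not deviate together (r of -0.026 to 0.034), so the values show no pairing by number. Whether samples were handled as pairs is not given. With a replicate block, 7 subunits were called with FGF2 and 0 with SB202190 against FGF2, 0 of their probe sets were called there, and all genes called were 4969, 2908 and 414 in the first 3 comparisons.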
